A study of Mus musculus with 11 samples.

Results

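Fatty acid and triglyceride synthesis was examined gene by gene in liver RNA from obese mice with steatohepatitis. The set held 32 genes, chosen by name: the transcription factors SREBP1 and ChREBP and the proteins that supply carbon and reducing power, build, elongate and desaturate fatty acids, activate them and assemble them into glycerolipids. All 32 were among the 46603 genes of the count table, and all 32 passed the low-count filter and were tested. The livers came from 11 male B6.V-*Lep* ob/JRj (*ob/ob*) mice, which make no functional leptin and overeat. All of them received the AMLN diet, rich in fat including trans-fat, fructose and cholesterol, from 5 to 6 weeks of age, for 15 weeks before dosing and throughout it, and all had liver disease on a biopsy before dosing. The control group of 7 mice was gavaged with vehicle, a carboxymethyl cellulose suspension. The other 4 mice were gavaged daily over 8 weeks with INT-767, at a dose of 10 mg/kg. INT-767 is a bile acid analog that activates the nuclear receptor FXR and the membrane receptor TGR5. No lean or chow-fed group was measured, so every value below compares obese, diet-fed mice that differ in dosing. Feeding state and hour set the level of many of these genes, and the hour of tissue collection was not given in the sources used here.

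New fatty acids are made in the cytosol of hepatocytes. Citrate leaves the mitochondrion, is split to acetyl-CoA, and is carboxylated to malonyl-CoA, from which fatty acid synthase builds palmitate with NADPH as the reductant. Palmitate is elongated and desaturated in the endoplasmic reticulum, and acyl-CoAs are then joined to glycerol 3-phosphate until diacylglycerol acyltransferases complete triglyceride. Insulin drives the pathway through SREBP1c, glucose and fructose drive it through ChREBP, and bile acids acting on FXR and its target SHP are known to restrain SREBP1c in the liver.

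The libraries held between 7381211 and 16022459 counts per mouse. They also differed within each group, and these differences touched the genes described here. The first principal component of all tested genes carried 58.7% of the variance. It set vehicle mice 1 and 7 (41.2 and 19) on the side of INT-767 mice 2, 3 and 4 (73.2, 7.06 and 90.3). INT-767 mouse 1 was at -1.54 and the other 5 vehicle mice between -62.0 and -18.2. This axis thus went partly with the groups, and its share in the group differences cannot be told apart from dosing. The median Spearman correlation with the other mice of the group was lowest for vehicle mouse 1 (0.923) and INT-767 mouse 4 (0.932). Genes were split by their longest transcript, over 5000 or under 2000 bases. The median log2 level of the long class, less that of the short class, was -0.25 and -0.21 in vehicle mice 1 and 7. It was between 0.16 and 0.50 in the other 5 vehicle mice. It was -0.58 and -0.72 in INT-767 mice 2 and 4, and 0.17 and 0.08 in mice 1 and 3. Long transcripts were thus low relative to short ones in 4 livers, of both groups. Counting all exonic bases, a wider measure, 13 of the 32 genes exceed 5000. Among these, *Srebf1*, *Mlxipl*, *Acly* and *Acss2* have longest transcripts of 4299, 3622, 4426 and 3609 bases, outside the long class. The test of each of the 32 genes was therefore also run with an offset and without each mouse in turn. The offset takes out, library by library, the trend on GC content and transcript length. Summed levels per step and the clock and marker lists are given without these checks.

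Genes of different steps were called in opposite directions with INT-767. Among the genes called higher, the largest rises were in *Elovl3*, *Thrsp*, *Acss2* and *Acly*, followed by *Elovl6* and *Agpat2*, and *Scd1*, the most abundant of the 32 transcripts, fell to 0.50 of its vehicle level. The test called 6 genes higher and 1 lower among the 32 (edgeR quasi-likelihood test, adjusted *p* below 0.05 over all genes tested), and 25 were not called. Of all 13880 genes tested, 9.72% were called, 5.04% higher and 4.68% lower. The log2 fold changes of the 32 genes lay above 0 for 17 and below 0 for 15, with a median of 0.05, beside a median of -0.01 over all genes tested. The groups did not overlap for *Acly*, *Acss2* and *Agpat3*, all higher with INT-767, and for *Scd1*, lower. Over all genes tested the groups did not overlap for 7.51%, with INT-767 above for 3.87% and below for 3.65%. The counts per step given below stand beside these same shares. All these counts describe the set and its steps and are not a test of either. A lower count in a whole liver can mean fewer cells of a type or less RNA per cell, and the 2 cannot be told apart here.

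**Figure D1:**
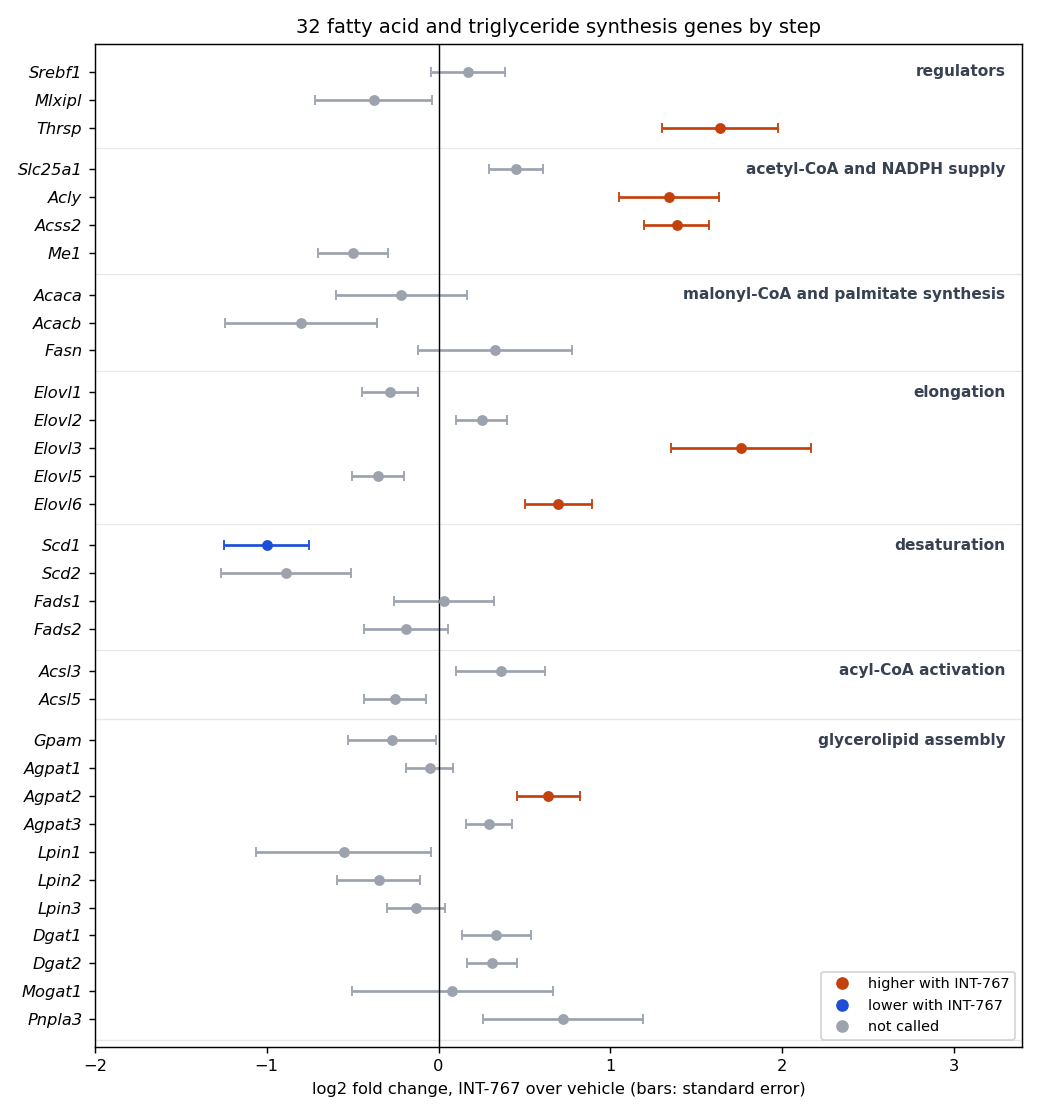
Log2 fold change of INT-767 over vehicle (x axis) for the 32 genes (y axis), grouped by step, with the standard error of the edgeR fit as bars; genes called higher, lower or not called have different colours. The 6 genes called higher fall in 4 of the 7 steps, and *Scd1* is the gene called lower.

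The sequences just upstream of 4 members are shown as examples of members called higher (*Acly* and *Agpat2*) and not called (*Slc25a1* and *Fasn*), and a difference in response between these genes was not tested. Each run is the 250 bases before the RefSeq start (GRCm38.p6), on the minus strand and 5′ to 3′, at chr11:100528001-100528250 for *Acly*, chr16:17928220-17928469 for *Slc25a1*, chr11:120824548-120824797 for *Fasn* and chr2:26604418-26604667 for *Agpat2*. None of the 4 windows overlaps an exon of the GENCODE M21 annotation. Capitals mark the letters CCAAT and CACGTG on either strand.
Acly: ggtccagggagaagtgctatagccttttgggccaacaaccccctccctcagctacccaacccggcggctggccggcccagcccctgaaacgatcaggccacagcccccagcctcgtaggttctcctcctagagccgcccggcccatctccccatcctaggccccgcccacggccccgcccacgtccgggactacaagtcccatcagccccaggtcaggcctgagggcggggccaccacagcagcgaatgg
Slc25a1: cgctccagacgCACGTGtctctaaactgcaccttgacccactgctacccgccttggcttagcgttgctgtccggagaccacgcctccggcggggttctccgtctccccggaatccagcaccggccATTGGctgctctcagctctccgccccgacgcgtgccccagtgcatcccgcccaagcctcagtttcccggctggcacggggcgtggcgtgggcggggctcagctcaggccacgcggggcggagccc
Fasn: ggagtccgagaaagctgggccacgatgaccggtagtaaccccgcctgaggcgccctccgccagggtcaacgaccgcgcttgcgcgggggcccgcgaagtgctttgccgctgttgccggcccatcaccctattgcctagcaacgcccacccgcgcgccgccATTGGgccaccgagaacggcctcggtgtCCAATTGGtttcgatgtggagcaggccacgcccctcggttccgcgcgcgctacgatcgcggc
Agpat2: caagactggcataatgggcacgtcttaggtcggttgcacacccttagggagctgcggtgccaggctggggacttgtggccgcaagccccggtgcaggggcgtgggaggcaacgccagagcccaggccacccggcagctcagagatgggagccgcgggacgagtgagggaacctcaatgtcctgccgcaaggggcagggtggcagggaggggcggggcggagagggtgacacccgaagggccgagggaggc
The window of *Fasn* held 3 matches to CCAAT, of which a pair on opposite strands share bases, and the window of *Slc25a1* held 1 match to CCAAT and 1 to CACGTG, the palindromic E-box letters that ChREBP and SREBP1 can bind. The windows of *Acly* and *Agpat2* held neither. RefSeq windows were matched for 26 of the 32 genes, at 37 starts. CCAAT stood in the windows of 16 of the 26 genes and at 17 of the 37 starts, beside 33.8% of all 32851 promoter windows. The matched genes included *Thrsp* and *Acss2*, which were called higher, and *Srebf1*, *Mlxipl*, *Me1* and *Gpam*, which were not. CACGTG stood in windows of *Mlxipl*, *Slc25a1*, *Elovl5* and *Lpin2* and in 6.02% of all windows. TCACNCCAC, a form of the sterol response element, stood in a window of *Mlxipl* and in 1.05% of all windows. These are matches of letters in short windows and say nothing about binding. *Elovl3*, *Scd1*, *Scd2*, *Fads1*, *Dgat1* and *Dgat2* were not matched.

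Of the 3 regulators, *Thrsp* was called higher and *Srebf1* and *Mlxipl* were not called. *Srebf1* encodes SREBP1, the factor through which insulin turns on lipogenic genes, and gene counts do not separate its 1a and 1c forms. Its level in the vehicle mice was between 315 and 803 CPM (counts over the TMM-scaled library size) with a median of 525, and in INT-767 mice 1 to 4 it was 608, 573, 485 and 696 CPM. The groups overlapped entirely, and the log2 fold change was 0.17 (SE 0.22, adjusted *p* = 0.577), with a 95% interval from -0.32 to 0.66 (t on 9 residual degrees of freedom). *Mlxipl* encodes ChREBP, the carbohydrate-responsive factor. It ranged from 69.7 to 211 CPM with a median of 175 in vehicle mice and was 185, 92.9, 115 and 65.9 CPM in INT-767 mice 1 to 4. The groups overlapped again, with the lowest values in vehicle mice 1 and 7 and INT-767 mouse 4, and the log2 fold change was -0.38 (SE 0.34, adjusted *p* = 0.437).

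*Thrsp* (Spot 14) encodes a small protein that promotes lipogenesis and is a classic target of thyroid hormone and carbohydrate feeding. It was the most abundant regulator per exonic length, with a mean of 141 RPKM (CPM per kilobase of exon) under vehicle. The vehicle mice had 181 to 497 CPM with a median of 270, and INT-767 mice 1 to 4 had 942, 1403, 397 and 1105 CPM. All INT-767 mice but mouse 3 lay above every vehicle mouse. The rise was 3.12-fold, a log2 fold change of 1.64 (SE 0.34, adjusted *p* = 0.0139). Without INT-767 mouse 2 the log2 fold change was 1.38 and the call was lost (adjusted *p* = 0.0764, edgeR).

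**Figure D2:**
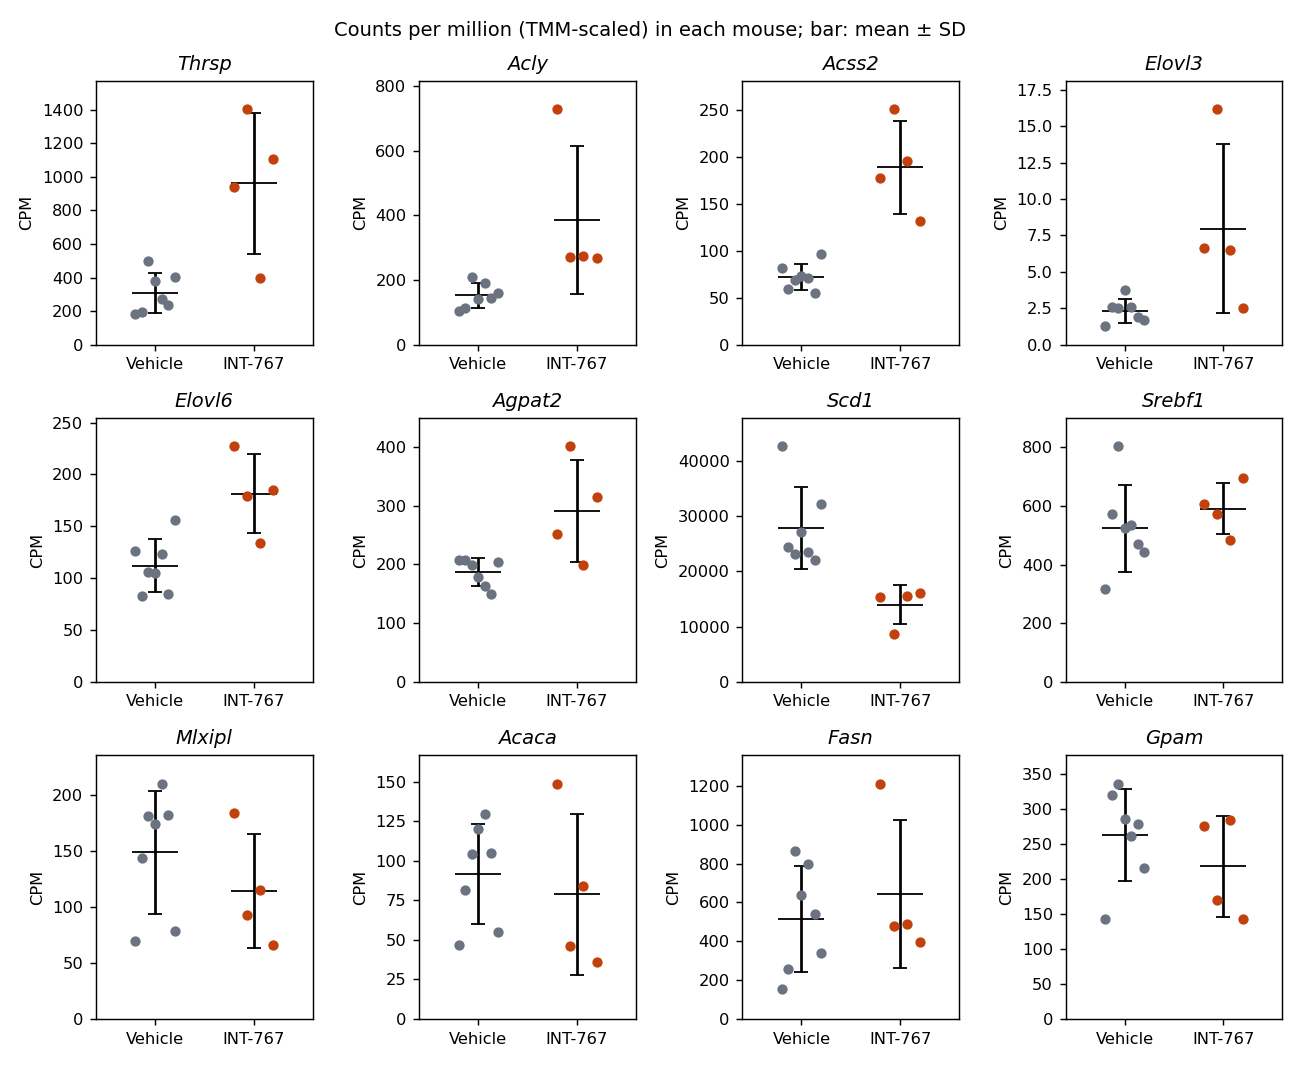
TMM-scaled CPM (y axes, linear from 0) of 12 genes in 7 vehicle and 4 INT-767 mice; each point is a mouse and the bar is the mean with its SD. *Acly*, *Acss2* and *Scd1* separate the groups, while *Srebf1*, *Mlxipl*, *Acaca*, *Fasn* and *Gpam* overlap.

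The supply of acetyl-CoA showed the clearest rises. *Acly* encodes ATP-citrate lyase, which splits exported citrate to cytosolic acetyl-CoA. It was at 103 to 209 CPM with a median of 144 in vehicle mice, and at 728, 272, 274 and 268 CPM in INT-767 mice 1 to 4. Every INT-767 mouse was above every vehicle mouse, and mouse 1 was far above the other 3. Its log2 fold change was 1.34 (SE 0.29, adjusted *p* = 0.018). It was 0.84 without INT-767 mouse 1 (adjusted *p* = 0.0313, edgeR), still called. *Acss2* encodes the cytosolic acetyl-CoA synthetase, which makes acetyl-CoA from acetate and is also a known SREBP target. Its vehicle range was 55.4 to 96.2 CPM with a median of 70.6, and the INT-767 mice were at 177, 251, 196 and 132 CPM. The groups did not overlap. With INT-767 the log2 fold change was 1.39 (SE 0.19, adjusted *p* = 0.00262), the smallest adjusted p of the set and the one that also passed a threshold of 0.01. Of the exonic bases of *Acss2*, 9.12% overlap genes on the opposite strand, among them *Acss2os*, and the strand setting of the counting was not given.

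The other suppliers did not pass the test. *Slc25a1* encodes the mitochondrial citrate carrier. Its log2 fold change was 0.45 (SE 0.16, adjusted *p* = 0.0799), with means of 193 ± 25.8 (SD, n = 7) and 263 ± 51.5 CPM (SD, n = 4). It was called by DESeq2 (adjusted *p* = 0.0308), with the GC content and length offset (adjusted *p* = 0.0355) and without INT-767 mouse 1 (0.56, adjusted *p* = 0.0456, edgeR). *Me1* encodes malic enzyme, which yields NADPH, and its log2 fold change was -0.50 (SE 0.21, adjusted *p* = 0.119). Of the 75-base windows in *Me1*, 20.0% are shared with other genes, mainly *Gm7049*, so its count is uncertain. Summed over the 4 genes per exonic length, the step was at 160 ± 21.9 RPKM with vehicle (SD, n = 7) and at 238 ± 32.8 RPKM with INT-767 (SD, n = 4), and the lowest INT-767 mouse (202) was above the highest vehicle mouse (198).

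The enzymes that commit acetyl-CoA to fat and build palmitate were not called. By edgeR, DESeq2 and limma-voom 0 of the 3 were called, and 0 had an unadjusted *p* below 0.05. *Acaca* encodes acetyl-CoA carboxylase 1, the cytosolic form that feeds synthesis. It was at 46.8 to 129 CPM with a median of 104 in vehicle mice and at 149, 46.0, 84.2 and 36.2 CPM in INT-767 mice 1 to 4. INT-767 mouse 1 was the highest of all 11 and INT-767 mice 2 and 4 the lowest, so the groups overlapped throughout, with a log2 fold change of -0.22 (SE 0.38, adjusted *p* = 0.70). The sign depended on the scaling, since the offset gave 0.17. *Acaca* also shares 26.8% of its 75-base windows with other genes, mainly *Gm5182*. *Fasn* encodes fatty acid synthase. Its vehicle range was 155 to 863 CPM with a median of 543, and the INT-767 mice were at 1213, 479, 490 and 394 CPM. Mouse 1 was above every vehicle mouse and the other 3 lay inside the vehicle range. The log2 fold change was 0.33 (SE 0.45, adjusted *p* = 0.613), -0.17 without INT-767 mouse 1, and 0.95 with the offset (adjusted *p* = 0.0526). *Acacb* encodes the carboxylase of the mitochondrial surface, whose malonyl-CoA restrains fatty acid oxidation. Its log2 fold change was -0.80 (SE 0.44, adjusted *p* = 0.216), and -0.28 with the offset. The 95% intervals of the log2 fold change, from -1.08 to 0.65 for *Acaca* and from -0.69 to 1.34 for *Fasn*, covered falls and rises alike.

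**Figure D3:**
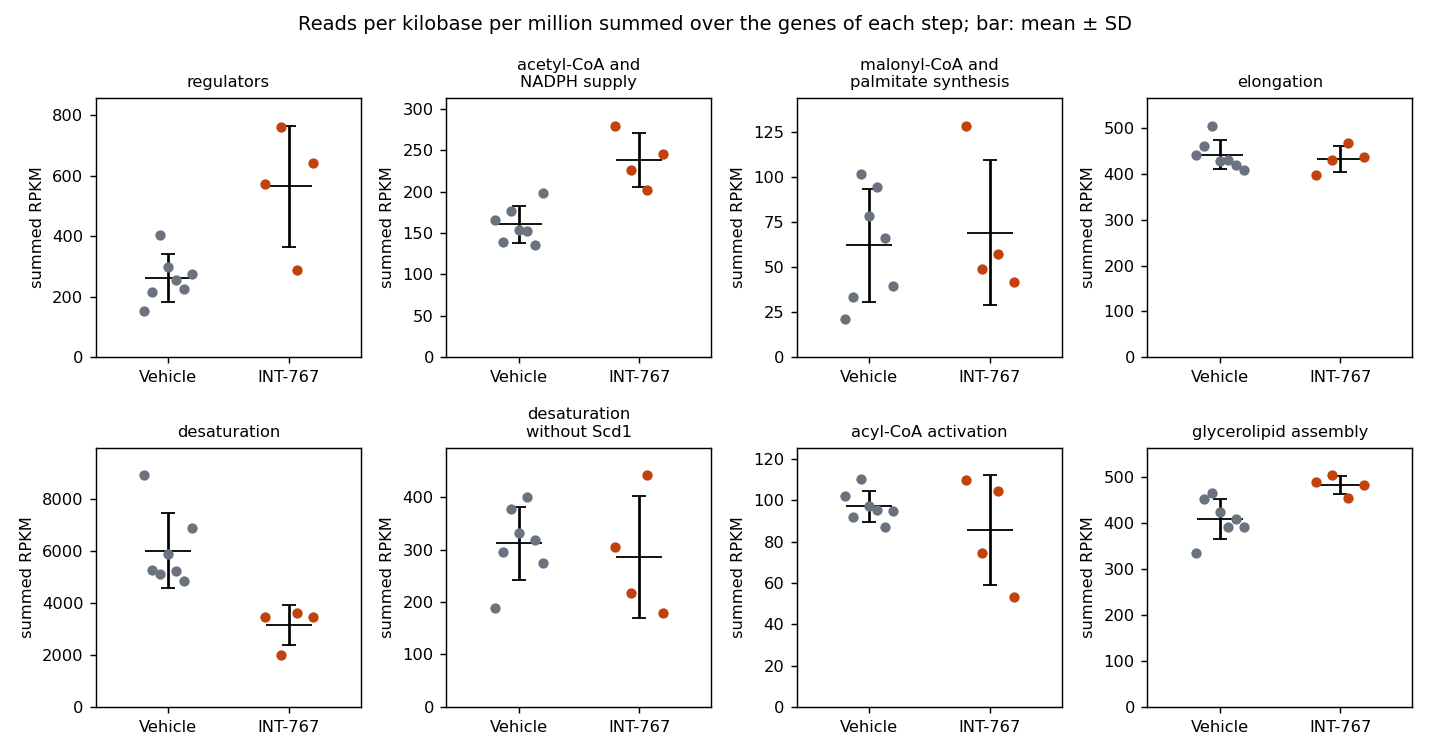
RPKM, the CPM per kilobase of exon (y axes, linear from 0), summed over the genes of each step, in each vehicle and INT-767 mouse; bars are mean and SD. The supply step separates the groups, malonyl-CoA and palmitate synthesis and elongation overlap, and desaturation separates the groups with *Scd1* counted and overlaps without it.

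Of the 5 elongases, *Elovl6* and *Elovl3* were called higher and 0 were called lower. *Elovl6* encodes the elongase that takes palmitate to stearate. The vehicle mice had 82.8 to 156 CPM with a median of 106, and INT-767 mice 1 to 4 had 227, 180, 134 and 185 CPM. INT-767 mouse 3 lay inside the vehicle range and the other 3 above it. The log2 fold change was 0.70 (SE 0.19, adjusted *p* = 0.0427), and the call was lost without any of vehicle mice 2 to 6 or INT-767 mice 1, 2 or 4, where the log2 fold change was between 0.57 and 0.71. It was also lost with library size only, upper-quartile factors, no low-count filter and 10 counts in every mouse (0.48 to 0.70, adjusted *p* = 0.0590 to 0.139). *Elovl3* encodes an elongase of saturated and monounsaturated chains, known in liver for its daily rhythm. It was the scarcest of the called genes, at 1.27 to 3.74 CPM with a median of 2.5 in vehicle mice and at 6.67, 16.2, 6.48 and 2.55 CPM in INT-767 mice 1 to 4. INT-767 mouse 4 lay inside the vehicle range, and mouse 2 was the highest. For *Elovl3* the log2 fold change was 1.76 (SE 0.41, adjusted *p* = 0.0224). It was 1.16 without INT-767 mouse 2 (adjusted *p* = 0.116) and 1.71 without vehicle mouse 6 (adjusted *p* = 0.0513), which ended the call both times, and it was not called by limma-voom (1.46, adjusted *p* = 0.0548).

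The elongases of long and polyunsaturated chains were not called. *Elovl5*, which elongates polyunsaturated chains and was the most abundant elongase per length, had a log2 fold change of -0.35 (SE 0.15, adjusted *p* = 0.131). *Elovl2*, which makes the precursors of docosahexaenoic acid, had 0.25 (adjusted *p* = 0.244), and *Elovl1*, which makes very long saturated chains, had -0.28 (adjusted *p* = 0.227). The summed level of the 5 elongases was 442 ± 32.4 RPKM with vehicle (SD, n = 7) and 433 ± 28.7 RPKM with INT-767 (SD, n = 4), since *Elovl2* and *Elovl5* hold most of it.

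Desaturation held the set's fall. *Scd1* encodes stearoyl-CoA desaturase 1, which turns palmitate and stearate into palmitoleate and oleate, the main acyl chains of stored triglyceride. It was by far the most abundant of the 32 transcripts per exonic length, with a mean of 5692 RPKM under vehicle. The vehicle mice were between 22050 and 42590 CPM with a median of 24320, and INT-767 mice 1 to 4 were at 15410, 8658, 15550 and 16060 CPM. Every INT-767 mouse was below every vehicle mouse, mouse 2 far below the others. For *Scd1* the log2 fold change was -1.0 (SE 0.25, adjusted *p* = 0.0283). *Scd1* held between 2.36% and 4.17% of all counts of a vehicle mouse and between 0.73% and 1.51% with INT-767. Without INT-767 mouse 2 the log2 fold change was -0.84 (adjusted *p* = 0.0955), and with the offset it was -0.84 (adjusted *p* = 0.0654), so that the call was lost in both. Of its 75-base windows, 3.15% are shared with other genes, mainly *Scd3*.

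*Scd2*, the form best known in brain and young liver, had a log2 fold change of -0.89 (SE 0.38, adjusted *p* = 0.128). Its 4 values with INT-767 were 44.7, 11.7, 26.7 and 10.3 CPM, beside a vehicle range of 29.6 to 64.3, and INT-767 mouse 1 stood above the vehicle median of 41.4 while the other 3 were below every vehicle mouse. Without INT-767 mouse 1 *Scd2* was called lower, with a log2 fold change of -1.42 (adjusted *p* = 0.0301, edgeR). *Fads1* and *Fads2* encode the delta-5 and delta-6 desaturases of polyunsaturated fatty acids, and their log2 fold changes were 0.03 (adjusted *p* = 0.946) and -0.19 (adjusted *p* = 0.593). The sign for *Fads1* turned under several scalings. The 3 desaturases other than *Scd1* summed to 312 ± 69.6 RPKM with vehicle (SD, n = 7) and 286 ± 116 RPKM with INT-767 (SD, n = 4), and the groups overlapped.

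The acyl-CoA synthetases were not called. By edgeR, DESeq2 and limma-voom 0 of the 2 were called, and 0 had an unadjusted *p* below 0.05. *Acsl5*, which directs fatty acids toward triglyceride, had a log2 fold change of -0.25 (adjusted *p* = 0.324). *Acsl3*, a synthetase of lipid droplets and the endoplasmic reticulum, had 0.36 (adjusted *p* = 0.328). Both were lowest among the INT-767 mice in mouse 4, at 230 and 26.2 CPM.

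Glycerolipid assembly had 1 call among 11 genes. This is near the 9.72% of all genes tested that were called and is not a result about the step. *Gpam* encodes the mitochondrial glycerol 3-phosphate acyltransferase of the first step. The vehicle mice had 143 to 336 CPM with a median of 278, and INT-767 mice 1 to 4 had 275, 169, 283 and 142 CPM. The groups overlapped, with INT-767 mouse 4 and vehicle mouse 1 lowest. The log2 fold change was -0.27 (SE 0.25, adjusted *p* = 0.454), and 0.03 with the offset. The next step makes phosphatidic acid. *Agpat2*, the acyltransferase whose loss causes lipodystrophy, was at 150 to 208 CPM with a median of 199 in vehicle mice and at 252, 401, 199 and 314 CPM with INT-767. INT-767 mouse 3 lay at the vehicle median, and the other 3 were above all vehicle mice. The log2 fold change was 0.64 (SE 0.18, adjusted *p* = 0.0469), the largest adjusted p among the called genes, and the call was lost without any of vehicle mice 2 to 7 or INT-767 mice 2 or 4, with log2 fold changes between 0.43 and 0.66. Library size only, upper-quartile factors, no low-count filter, 10 counts in every mouse and limma-voom also ended it (0.41 to 0.63, adjusted *p* = 0.0571 to 0.0993). *Agpat3*, a related acyltransferase, was not called (log2 fold change 0.29, adjusted *p* = 0.145), although its INT-767 values, from 281 to 349 CPM, lay above every vehicle mouse, the highest of which had 275 CPM. With the offset it was called higher, with a log2 fold change of 0.70 (adjusted *p* = 0.0245). *Agpat1* had a log2 fold change of -0.05 (adjusted *p* = 0.803).

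The lipins, phosphatases that turn phosphatidic acid into diacylglycerol, were not called. *Lpin1*, which is also a transcriptional coactivator, varied most, from 53.8 to 323 CPM among the vehicle mice, and had a log2 fold change of -0.55 (SE 0.51, adjusted *p* = 0.446). *Lpin2* had -0.35 (adjusted *p* = 0.308) and *Lpin3* -0.13 (adjusted *p* = 0.591). The last step joins the final acyl chain. *Dgat2*, the acyltransferase most tied to newly made fatty acids, was at 359 to 563 CPM with a median of 488 in vehicle mice and at 647, 560, 534 and 619 CPM with INT-767. INT-767 mice 1 and 4 were above every vehicle mouse, and the log2 fold change was 0.31 (SE 0.15, adjusted *p* = 0.155). *Dgat1* was at 23.9 to 37.3 CPM with a median of 27.4 in vehicle mice and at 24.8, 41.9, 29.0 and 49.2 CPM with INT-767. INT-767 mice 2 and 4 were above the vehicle range and the others inside it, and the log2 fold change was 0.34 (SE 0.20, adjusted *p* = 0.246). *Mogat1*, a monoacylglycerol acyltransferase induced in fatty liver, was scarce (0.76 to 12.4 CPM with INT-767) and had a log2 fold change of 0.08 (SE 0.58, adjusted *p* = 0.930), and 12.8% of its exonic bases overlap *BC035947* on the opposite strand. *Pnpla3*, a lipid droplet protein and target of SREBP1 and ChREBP, had 0.73 (SE 0.47, adjusted *p* = 0.278), with 15.3 CPM in INT-767 mouse 1 beside 3.59 to 6.05 CPM in the other 3, and 0.05 without mouse 1 (adjusted *p* = 0.938, edgeR). The 11 genes together summed to 409 ± 43.3 RPKM with vehicle (SD, n = 7) and 482 ± 20.5 RPKM with INT-767 (SD, n = 4).

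The mice did not carry these values in the same order. Vehicle mouse 1 was the lowest of its group for 19 of the 32 genes, and vehicle mouse 3 the highest for 10. Among the INT-767 mice, mouse 1 was the highest for 12 genes, *Acly*, *Fasn*, *Acaca*, *Elovl6* and *Pnpla3* among them, and mouse 4 the lowest for 14. INT-767 mouse 4 also had the highest levels of some adipocyte markers but not of others. *Lep* was at 4.80 CPM, *Adipoq* at 3.37 CPM and *Plin1* at 1.35 CPM there, while *Lep* and *Adipoq* were at 0 in all vehicle mice and in INT-767 mice 1 and 3. *Nnat* was also highest in mouse 4, only slightly above the highest vehicle mouse. *Cfd* lay inside the vehicle range in mouse 4, and *Adrb3* lay below every vehicle mouse. The part of adipocyte transcripts in the lipogenic values of mouse 4 was not tested. Without that mouse and without vehicle mouse 1, the mice least like their own groups, *Thrsp*, *Acly*, *Acss2* and *Elovl3* were called higher and *Scd1* lower, with log2 fold changes of 1.45, 1.40, 1.54, 1.96 and -0.95, and *Elovl6* and *Agpat2* were no longer called (adjusted *p* = 0.0623 and 0.0724, edgeR).

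**Figure D4:**
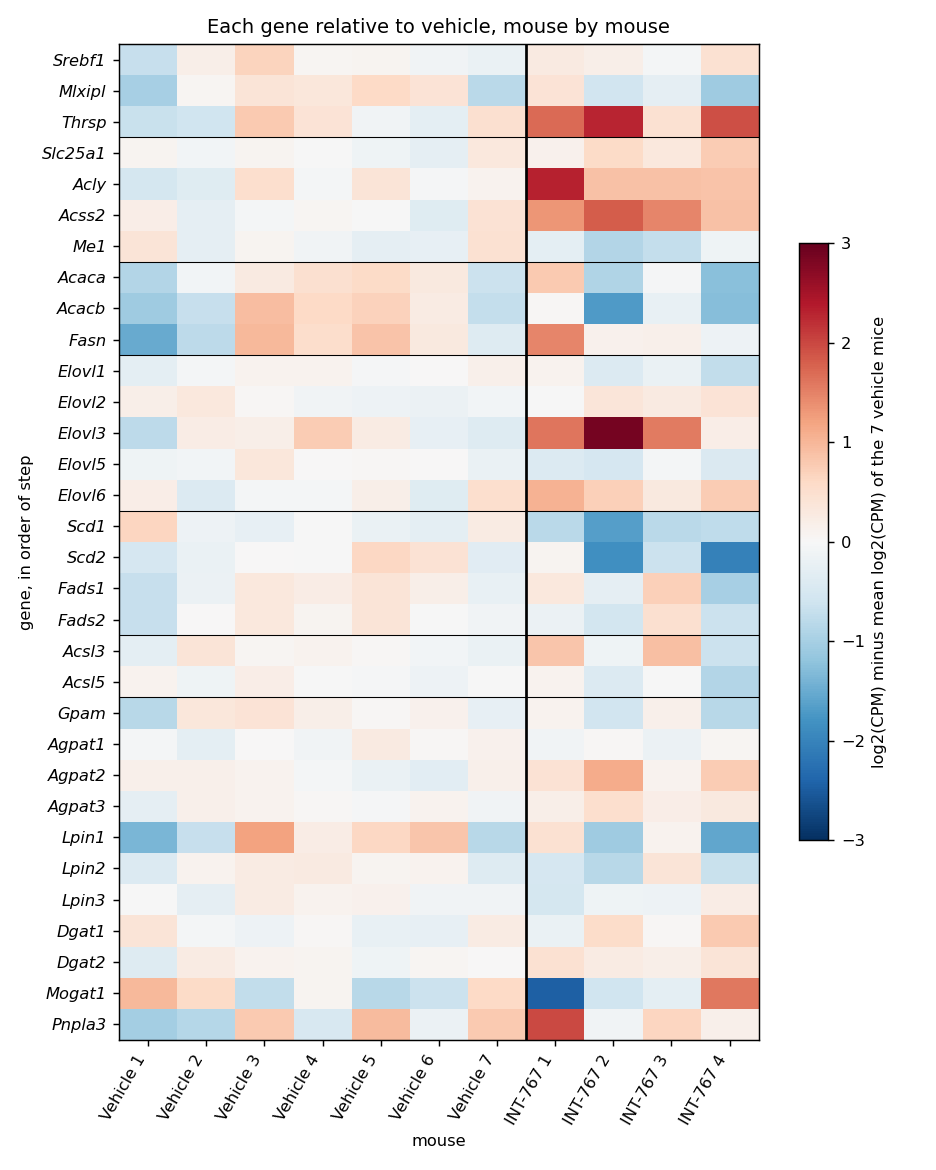
Log2 CPM of each of the 32 genes (rows, in order of step) in each mouse (columns) less the mean of the 7 vehicle mice, on a colour scale from -3 to 3. *Thrsp*, *Acly*, *Acss2* and *Elovl3* are above the vehicle mean in all 4 INT-767 mice and *Scd1* is below it in all 4, while *Acaca*, *Acacb*, *Lpin1* and *Gpam* are low in vehicle mouse 1 and INT-767 mice 2 and 4 alike.

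By gene length, the 6 genes of up to 2500 exonic bases had a median log2 fold change of 0.68, the 13 genes above that and up to 5000 bases -0.13, and the 13 genes over 5000 bases -0.22. With the offset these medians were 0.67, 0.02 and 0.17. Under the offset 20 of the 32 log2 fold changes were above 0 and 12 below, with a median of 0.19, beside 17 and 15 with TMM scaling alone. *Thrsp*, *Acly*, *Acss2*, *Elovl3*, *Elovl6* and *Agpat2* were called under both, *Slc25a1* and *Agpat3* were added, and *Scd1* was lost. The part of transcript length in the group differences was not tested beyond this offset.

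**Figure D5:**
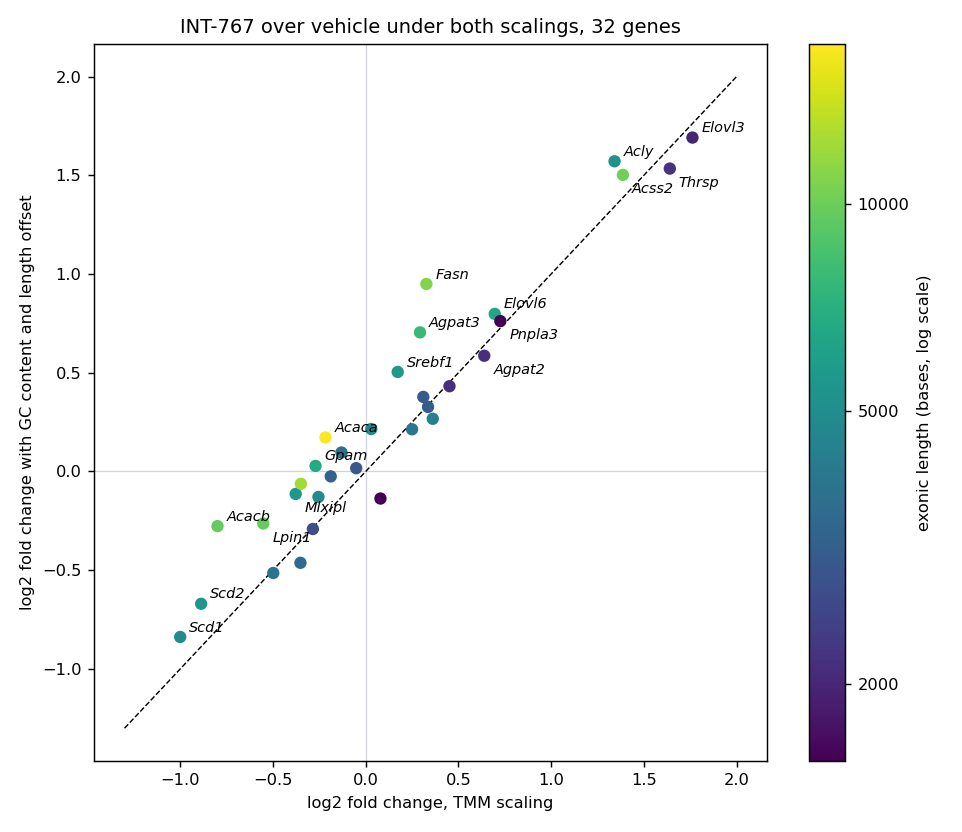
Log2 fold change of INT-767 over vehicle for the 32 genes with TMM scaling (x axis) and with the GC content and length offset (y axis), coloured by exonic length on a log scale; the dashed line marks equal values. Long genes such as *Fasn*, *Agpat3*, *Acacb* and *Acaca* lie above the line, and the genes called higher keep values from 0.59 to 1.69.

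Within the vehicle group the members were also compared with *Srebf1*, across 7 mice. Of 31 relations, 1 passed after Benjamini-Hochberg adjustment: *Gpam* went with *Srebf1* (Pearson r = 0.91, exact permutation *p* = 0.00139, adjusted 0.0431; Spearman rho = 0.89, exact permutation *p* = 0.0123, adjusted 0.309), and r was 0.81 without vehicle mice 1 and 3. *Fasn* had r = 0.74 (exact permutation *p* = 0.0488, adjusted 0.162), which was -0.01 without those mice, so that it rested on them. *Scd1* ran the other way (r = -0.79, exact permutation *p* = 0.0347, adjusted 0.162), with r = -0.47 without them. Leaving out vehicle mouse 1, 3, 4, 5 or 7 left 0 relations past the threshold, and leaving out mouse 6 left 2. Vehicle mouse 1, lowest for *Srebf1* and most of the set, was also a mouse in which long transcripts were low relative to short ones.

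Among the genes that control SREBP1 and ChREBP, *Nr0b2* and *Insig1* rose. *Nr0b2*, which encodes SHP, a repressor and known FXR target, was at 9.73 to 26 CPM with a median of 18.3 in vehicle mice and at 49.3, 63.0, 45.2 and 41.1 CPM with INT-767. The groups did not overlap, and the log2 fold change was 1.54 (SE 0.25, adjusted *p* = 0.00474). *Insig1*, which holds SREBP precursors in the endoplasmic reticulum and is itself an SREBP target, was at 128 to 273 CPM with a median of 193 in vehicle mice and at 375, 315, 417 and 314 CPM with INT-767. It too separated the groups, with a log2 fold change of 0.88 (SE 0.20, adjusted *p* = 0.0227). *Mlx*, the obligate partner of ChREBP, was higher (log2 fold change 0.59, adjusted *p* = 0.0364), with INT-767 mouse 3 inside the vehicle range. These 3 were the genes called among 22 of this list, 0 were called lower, and the median log2 fold change was 0.12. Of all genes tested 9.72% were called, 5.04% higher and 4.68% lower, and the count is not a test of the list. The 3 calls of this list became 1 when vehicle mouse 4 or INT-767 mouse 2 was omitted, 5 genes were called higher without INT-767 mouse 3, and 1 was called lower without vehicle mouse 1 or 7. The counts higher and lower were 1 and 1 with library size only, 5 and 1 with DESeq2 and 6 and 1 with the offset. *Insig2* had a log2 fold change of 0.53 (adjusted *p* = 0.211), *Nr1h3*, which encodes the liver X receptor alpha, 0.39 (adjusted *p* = 0.0673) and *Nr1h4*, which encodes FXR, -0.25 (adjusted *p* = 0.232).

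Entry of sugar into lipogenesis, a list of 13 genes that ChREBP is known to regulate or that act beside it, had 5 genes called higher and 0 lower, with a median log2 fold change of 0.47. Of all genes tested 9.72% were called, 5.04% higher and 4.68% lower, and the count is not a test of this list. *Khk*, the fructokinase that starts fructose breakdown, rose most, from a vehicle range of 288 to 419 CPM to 738, 1196, 481 and 1487 CPM (log2 fold change 1.47, SE 0.26, adjusted *p* = 0.00644). The groups did not overlap for it. The glucose transporter *Slc2a2* had a log2 fold change of 0.66 (adjusted *p* = 0.0295) and *Gckr* 0.47 (adjusted *p* = 0.0384). The 5 calls of the list became 1 without INT-767 mouse 2, 2 when vehicle mouse 4, 5 or 6 or INT-767 mouse 1 was omitted, and 3 for vehicle mouse 2, 3 or 7. It had 1 gene called lower without vehicle mouse 1 or INT-767 mouse 3. With library size only 2 were called higher and 1 lower, 2 were higher without a low-count filter, 3 with upper-quartile factors or 10 counts in every mouse, and DESeq2 called 7 higher and 1 lower. *Pklr*, the liver pyruvate kinase, had 0.47 (adjusted *p* = 0.209). Of the 13 log2 fold changes 11 were above 0 and 2 below. The larger fall was in *Txnip*, at -1.13 (SE 0.36, adjusted *p* = 0.0648, edgeR), which was not called.

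The counts for neighbouring pathways stand beside the 9.72% of all genes tested that were called (5.04% higher, 4.68% lower), and differences between the lists were not tested. The counts for fatty acid oxidation, for the further synthesis genes and for NADPH supply lie near that share and are not results about those pathways. Among 23 genes of cholesterol synthesis, the targets of SREBP2, 13 were called higher and 0 lower, with a median log2 fold change of 0.67; *Idi1*, *Sqle*, *Msmo1* and *Cyp51* had 2.07, 1.44, 1.36 and 1.34. The 13 became 8 when vehicle mouse 5 or 6 was omitted, 7 when INT-767 mouse 2 was, and 8 with library size only. Of 30 genes of fatty acid oxidation, *Echs1* was called higher (0.93, adjusted *p* = 0.0474) and *Acaa1b* lower (-0.84, adjusted *p* = 0.0258), with a median of 0.02. In this list 0 were called higher by limma-voom or when any of vehicle mice 2 to 6 or INT-767 mouse 2 or 4 was omitted, and 0 lower without vehicle mouse 5 or 6 or INT-767 mouse 2, while 2 were higher and 4 lower without vehicle mouse 1, and 2 lower without INT-767 mouse 3. DESeq2 called 1 higher and 3 lower, and library size only 0 and 3. Of 25 further genes of fatty acid synthesis, elongation and activation, *Slc27a5*, a bile acid and very long chain acyl-CoA synthetase, was called higher (0.92, adjusted *p* = 0.0201) and *Acss1*, the mitochondrial acetyl-CoA synthetase, lower (-1.27, adjusted *p* = 0.0259), with a median of -0.06. Here 0 were called higher or lower without INT-767 mouse 2, 0 lower without vehicle mouse 5 or 6, 2 higher and 3 lower without vehicle mouse 1, and 4 higher without INT-767 mouse 1. DESeq2 called 3 higher and 3 lower, and the offset 1 and 2. *Acss1* was thus lower where its cytosolic relative *Acss2* was higher, at 0.84 to 1.24 CPM with INT-767 beside 1.61 to 3.39 CPM with vehicle. Of 10 further genes that supply NADPH, *Tkt*, the transketolase of the pentose phosphate pathway, was called higher (0.63, adjusted *p* = 0.0381), with a median of 0.05. The NADPH list had 0 called higher by limma-voom or without any of vehicle mice 2 to 7 or INT-767 mouse 2 or 4, 2 higher and 1 lower without vehicle mouse 1, and 1 lower without INT-767 mouse 1. DESeq2 called 1 higher and 2 lower. Of 18 further genes of glycerolipid assembly and secretion 0 were called by edgeR, DESeq2 or limma-voom, with a median of -0.03, and 2 had an unadjusted *p* below 0.05 in edgeR. In that list 1 was called higher without vehicle mouse 1 and 1 lower without INT-767 mouse 4.

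Genes that mark the hour and the make-up of the tissue were counted in the same way, beside the 9.72% of all genes called, and their part in the lipogenic differences was not tested. Of 5 clock genes that peak toward morning, 3 were called higher, among them *Arntl* and *Cry1* with log2 fold changes of 2.30 and 1.84, and of 10 that peak toward evening, *Nr1d1*, *Bhlhe41* and *Dbp* were called lower, with -2.28, -1.68 and -1.43. Of 10 hepatocyte markers *Ass1* was called higher (1.31), and their summed level, led by *Alb*, had a vehicle range of 56160 to 74210 CPM and was 105900, 107000, 88050 and 60390 CPM in INT-767 mice 1 to 4. Of 10 macrophage markers *Cd68* and *Csf1r* were called lower (-1.16 and -1.14), and of 10 markers of stellate cells and myofibroblasts *Col1a1*, *Col1a2* and *Pdgfrb* (-2.96, -2.35 and -1.31). DESeq2 called 5 of the hepatocyte, 6 of the macrophage and 4 of the stellate markers, and limma-voom 1, 3 and 4. The log2 fold changes were above 0 for 9 of the 10 hepatocyte markers (median 0.55), and below 0 for 9 of the 10 macrophage markers (median -1.04) and 8 of the 10 stellate markers (median -0.75). The macrophage markers, led by *Lyz2*, summed to 732 to 1021 CPM with vehicle and to 528, 498, 472 and 1116 CPM with INT-767. The stellate markers, led by *Col3a1*, summed to 462 to 1362 CPM with vehicle and to 281, 206, 345 and 599 CPM with INT-767. Of 6 tested markers each of cholangiocytes, sinusoidal endothelium and lymphocytes 0 were called by edgeR or limma-voom, and 3, 2 and 1 had an unadjusted *p* below 0.05 in edgeR. DESeq2 called 2 of the cholangiocyte markers and 0 of those of endothelium and lymphocytes. Of 7 adipocyte markers 3 were tested and *Adrb3* was called lower (-2.0); *Retn* was at 0 in all mice. The summed level of all 7 was 2.03 to 7.11 CPM with vehicle and 1.53, 1.38, 2.25 and 14.4 CPM with INT-767.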

How the data were processed

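Liver mRNA of 7 vehicle and 4 INT-767 mice was measured by bulk sequencing, and groups follow the sample labels. The authors made stranded libraries, read 75 cycles, aligned the reads to GRCm38 with STAR (version 2.5.2a in the supplementary methods, 2.4.0 in the submitters' processing notes) and Ensembl release 84, and deposited raw read counts per gene, 46603 genes by 11 mice. Which program counted the reads, and with which strand setting, was not stated in these sources. The study's other data were not analysed here.

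Genes were kept by filterByExpr (minimum count 10, minimum total count 15), and 13880 were tested with edgeR 4.0.16 (R 4.3.3; TMM factors, glmQLFit robust, glmQLFTest, treatment as the only term), with Benjamini-Hochberg adjusted *p* over all of them and a threshold of 0.05. CPM use TMM-scaled library sizes, and RPKM divides them by the exonic bases of GENCODE M21. Standard errors were derived from the F statistic. Total counts of 7381211 to 16022459 per mouse limit precision mainly for scarce genes such as *Elovl3*. The members and gene lists were chosen with earlier results of these data known. Values in every INT-767 mouse, with the range and median of the vehicle mice, are given for members called. They are also given for *Srebf1*, *Mlxipl*, *Acly*, *Acaca*, *Fasn*, *Scd1*, *Elovl6*, *Gpam*, *Dgat1* and *Dgat2* whatever their call. Values for *Scd2* and *Txnip* were added after they were seen. Of other lists up to 5 called genes by size are named, with *Insig1*, *Insig2*, *Nr1h3*, *Nr1h4*, *Nr0b2* and *Pklr*, and some genes of these lists are counted but not reported here by name. Of the list genes, *Gpat3*, *Plpp1*, *Plpp2* and *Plpp3* were not matched by symbol.

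Alternatives were RLE factors, library size only, upper-quartile factors, no filter beyond 1 count, 10 counts in every mouse, DESeq2 1.42.0, limma-voom (limma 3.58.1), an exact Mann-Whitney test, a threshold of 0.01, a block for the mouse's number, an offset for GC content and transcript length (lowess, span 0.3; 13835 genes), both together, and leaving out each mouse. Leaving out vehicle mouse 1 and INT-767 mouse 4 together was chosen after seeing the data. On simulated data of this design (13880 genes, 200 changed by 2 on the log2 scale) 91% of the changed genes were recovered by edgeR, with 12 false calls. That change is larger than the log2 fold change of any member in the main fit, the largest being 1.76 for *Elovl3*. Recovery of smaller changes was not tested, so the 91% does not apply to the members. Promoter windows are from RefSeq (GRCm38.p6). Figures were drawn with matplotlib 3.10.9.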

Additional observations from a re-analysis of the deposited data

Results flagged for a closer look

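Single mice stood far from the rest of their group for 4 of the genes, by Dixon's 95% limit on the gap to the nearest mouse over the group's range. Chance gives about 1 in 20 groups, and 5 of 78 groups tested passed the limit. INT-767 mouse 1 had 727.9 CPM of *Acly*, where the next mouse had 274.1, and 1213 CPM of *Fasn*, where the next had 490. INT-767 mouse 2 had 8658 CPM of *Scd1*, below the next mouse at 15410. For *Elovl5*, vehicle mouse 3 had 1057 CPM beside 858.6 in the next, and INT-767 mouse 3 had 810.1 CPM beside 626.9. The causes were not tested.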

How the results depend on the processing

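*Acly* and *Acss2* were called higher in all 20 alternatives at a threshold of 0.05 other than the block and the exact Mann-Whitney test, *Thrsp* in 19, *Elovl3* in 17, *Elovl6* in 7 and *Agpat2* in 6, and *Scd1* was called lower in 18. Leaving out 1 mouse gave 164 to 1906 genes higher and 110 to 1370 lower, 2 to 6 members higher and 0 to 2 lower, with the lowest counts without INT-767 mouse 2 (2 members, *Acly* and *Acss2*) and the highest gene counts without vehicle mouse 1. For genes higher and lower, library size only gave 331 and 1026 (it moves the median log2 fold change of all genes to -0.22, and 24.4% of its calls were higher, beside 51.9% with TMM and 36.5% with upper-quartile factors), DESeq2 gave 1443 and 1368, the GC content and length offset 1073 higher (57.0% of its calls) and no member lower (0), and a threshold of 0.01 gave 158 and 87, with 1 member higher (*Acss2*) and 0 lower. Without a low-count filter the median moved to -0.16. The exact Mann-Whitney test called 0 genes in either direction (3263 with an unadjusted *p* below 0.05); with 4 against 7 mice its smallest *p* is 0.00606, and the smallest adjusted *p* was 0.0807.

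The sample titles number the mice of both groups. Deviations of same-numbered mice from their group means had correlations of -0.69, 0.22, 0.15 and -0.48, and no INT-767 mouse correlated best with its own number. The titles state no pairing, and the mice were not treated as pairs. These correlations also carry the library differences described above, so they cannot exclude a link between same-numbered mice. The replicate block, which spends degrees of freedom on those numbers, called 0 genes and 0 members in either direction, with and without the offset (1681 and 1347 genes with an unadjusted *p* below 0.05).

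Among members, signs turned for genes that were not called. *Srebf1* was -0.044 with library size only and -0.020 without vehicle mouse 1 and INT-767 mouse 4. *Acaca* was 0.17 with the offset, 0.11 with block and offset and between -0.72 and 0.020 when a mouse was left out, *Fasn* between -0.17 and 0.50. With the offset *Gpam* was 0.028, *Agpat1* 0.017 and *Lpin3* 0.10, and *Agpat1* was 0.066 with the block and 0.10 with both. *Fads1* was -0.16 with library size only, -0.035 with upper-quartile factors, -0.033 with 10 counts in every mouse, -0.054 with limma-voom, -0.062 in the exact Mann-Whitney setting and -0.26 to 0.26 without a mouse. *Mogat1* was -0.16, -0.013, -0.47 and -0.39 with library size only, upper-quartile factors, limma-voom and the exact Mann-Whitney setting, -0.55 with the block, -0.14 with the offset, -0.73 with both, -0.92 without vehicle mouse 1 and INT-767 mouse 4, and -1.09 to 0.46 without a mouse. The causes were not tested. The relation with *Srebf1* among vehicle mice passed for 0 members with library size only and with Spearman's rho, and for 0 to 2 when a mouse was left out. Depth limits *Elovl3*, *Mogat1* and *Pnpla3* most, with as few as 10, 12 and 15 counts in a mouse.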

Other observations

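The 32 genes together held 3.07% to 4.74% of all counts of a vehicle mouse and 1.43% to 2.48% with INT-767, most of it *Scd1*. Counted per exonic length, *Scd1* exceeded *Scd2* 409 to 1610 times in vehicle mice and 385, 823, 649 and 1734 times in INT-767 mice 1 to 4, so the ranges overlapped. Vehicle mouse 1, which had the most *Scd1* (42590 CPM), had the least *Fasn* (155 CPM), *Srebf1* (315 CPM) and *Acaca* (46.8 CPM) of its group. INT-767 mouse 1, the highest for *Acly*, *Fasn*, *Acaca* and *Pnpla3*, had 15410 CPM of *Scd1*, close to mice 3 and 4.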
